A study of Mus musculus with 16 samples.

Results

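Healing of an incision without added mechanical load was followed here from day 6 to day 14 after injury. The members are the 4 arrays of unstressed wounds harvested at day 14 and the 4 arrays of unstressed wounds harvested at day 6, which make 8 of the 16 arrays of the study. All were labelled as dorsal incisional wound tissue of female wild-type C57BL/6 mice in a model of hypertrophic scarring, with 4 mice per group per time point. The labels give the unstressed wounds no period of loading, and the other 8 arrays were wounds harvested at the same days after 48 hours (day 6) or 10 days (day 14) of mechanical loading, called stressed. Stressed wounds are used below only for comparison. Total RNA of the whole tissue was extracted with Trizol and hybridized to an Affymetrix GeneChip, so each array averages over all cells of the harvested tissue. Of 45101 probe sets, 34945 carried exactly 1 gene symbol in the platform annotation. These gave 18193 genes, each read from the probe set with the widest interquartile range over the 16 arrays. That choice used the arrays that were then tested. It favours probe sets that differ between the days, so counts and sizes of called differences can be raised by it.

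A skin wound passes through inflammation, in which neutrophils and then macrophages enter, through proliferation, in which keratinocytes close the surface while fibroblasts and new vessels fill the gap with granulation tissue, and into remodelling, in which cells leave and the matrix is reworked. Muscle below the skin, when cut, regenerates from satellite cells that pass through a myogenic programme with embryonic myosins. Hair follicles of mouse back skin cycle between rest and growth (anagen), and in growth they build the inner root sheath first and then the keratins and keratin-associated proteins of the hair shaft.

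The deposited values are logarithms, read here as base 2 with natural logarithms also possible, and every probe set is centred near 0. A value of 0 is therefore not an absence of signal, a level cannot be compared between genes, and the values cannot show whether a marker of the labelled tissue is present or absent. Day 14 minus day 6 is written below as the log2 difference, with its standard error (SE). It was tested with limma on all 16 arrays as 4 groups, with p-values adjusted by the Benjamini-Hochberg method over all genes, and "rose" and "fell" mark genes with an adjusted p under 0.05. In bulk tissue, fewer cells of a type and less RNA per cell cannot be told apart.

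Several measures of the arrays moved with the day. The mean of the 24 probe sets for poly-A control RNAs, which are added to a sample before labelling, lay between -2.20 and 2.49 in the day 6 arrays and between -4.88 and -4.67 in the day 14 arrays. All 4 day 14 arrays were below all 4 day 6 arrays, and the same held over the 16 arrays of the study. The 3 probe sets for 18S ribosomal RNA went from -0.25 to 2.41 at day 6 to -1.12 to -0.81 at day 14. The standard deviation over all probe sets of an array was 0.29 to 0.37 at day 6 and 0.55 to 0.77 at day 14. Over the 16 arrays these ranges were 0.26 to 0.41 and 0.55 to 0.77, again without overlap. The 18 hybridization control probe sets, added after labelling, overlapped between the days, with -0.38 to 0.16 and -0.38 to 0.19. The day of harvest and the preparation of the RNA therefore cannot be told apart in these arrays. In day 14 replicate 4, the 5′ minus 3′ difference of the Gapdh control probe sets was -1.35, against -0.20 to 0.19 in the other 7 arrays. The Actb control probe sets set this array less apart. Their difference was -0.35 there and -0.27 in day 14 replicate 3, against -0.16 to 0.13 in the remaining unstressed arrays. Xist, the RNA of the inactive X chromosome, was between 5.98 and 6.30 in 4 of the 16 arrays and between -0.53 and 0.81 in the other 12, although all were labelled female, and the mean of Y-linked genes was -3.97 to -3.53 in the first set and -0.99 to 0.74 in the second. Day 14 replicates 3 and 4 had high Xist, and none of the day 6 unstressed arrays did, so values are also given from the 12 arrays with low Xist, where day 14 rests on replicates 1 and 2. On those arrays all 199 of the named genes that passed kept their direction, 178 of them passed and 30 moved by over 1.5 times.

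**Figure D1:**
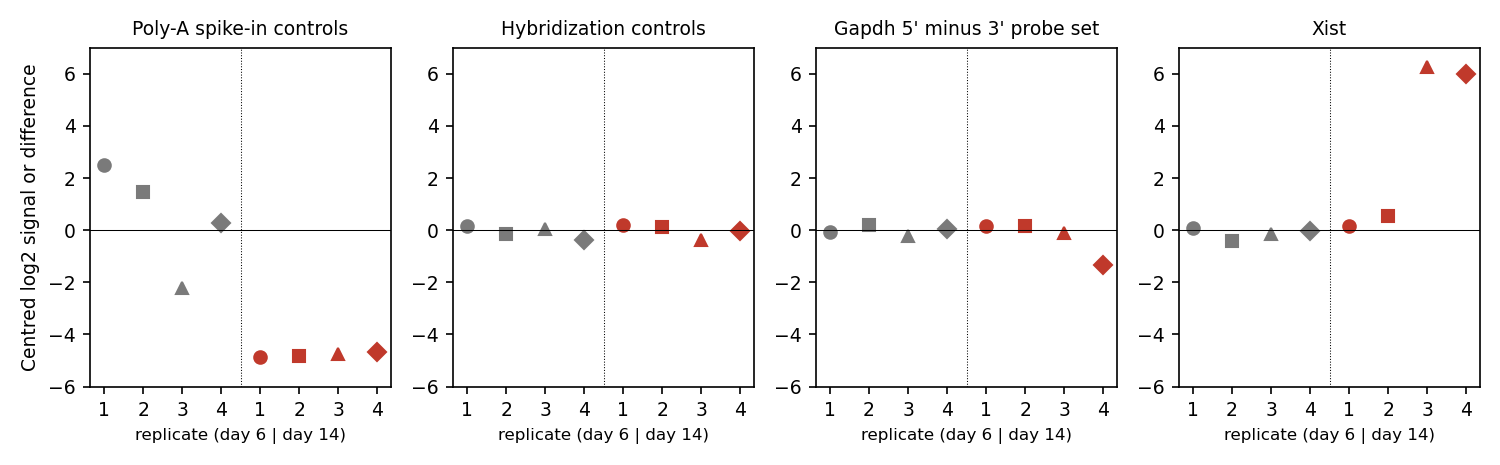
Control measures of the 8 unstressed arrays by replicate (x axis), with day 6 in grey and day 14 in red, as centred log2 signal or as the difference of 2 probe sets. The poly-A controls of the 4 day 14 arrays lie between -4.88 and -4.67, below every day 6 array, and Xist is high in day 14 replicates 3 and 4.

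Between day 6 and day 14, more genes fell than rose. Of 18193 genes, 4211 rose (23.1%) and 5794 fell (31.8%), and the median log2 difference over all genes was -0.09. With a difference of at least 1 in addition, 778 rose (4.28%) and 2376 fell (13.1%). The 4 day 14 values did not overlap the 4 day 6 values in 8899 genes (48.9%). Counts within the lists below are to be read beside these shares. Against this background, hair follicle genes stood at one end, with a list median of 4.98. Macrophage, muscle regeneration, cornified keratinocyte, interferon and matrix genes stood at the other, with medians of -2.05, -2.03, -1.81, -1.70 and -1.31. Without the high-Xist arrays these medians were 2.81 for hair and -1.96, -1.86, -1.36, -1.51 and -0.77 for the other 5, listed in the order above. After quantile normalization the macrophage median was -1.34 and the matrix median -0.59. The same step took the chemokine median from -0.90 to -0.36, the neutrophil median from -0.94 to -0.30 and the protease median from -1.07 to -0.51. Hair then stood at 3.82 and muscle regeneration at -2.15. Of 5635 called genes with more than 1 probe set, 2789 (49.5%) had the same sign in all of them, so genes below whose probe sets disagreed are named as such.

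**Figure D2:**
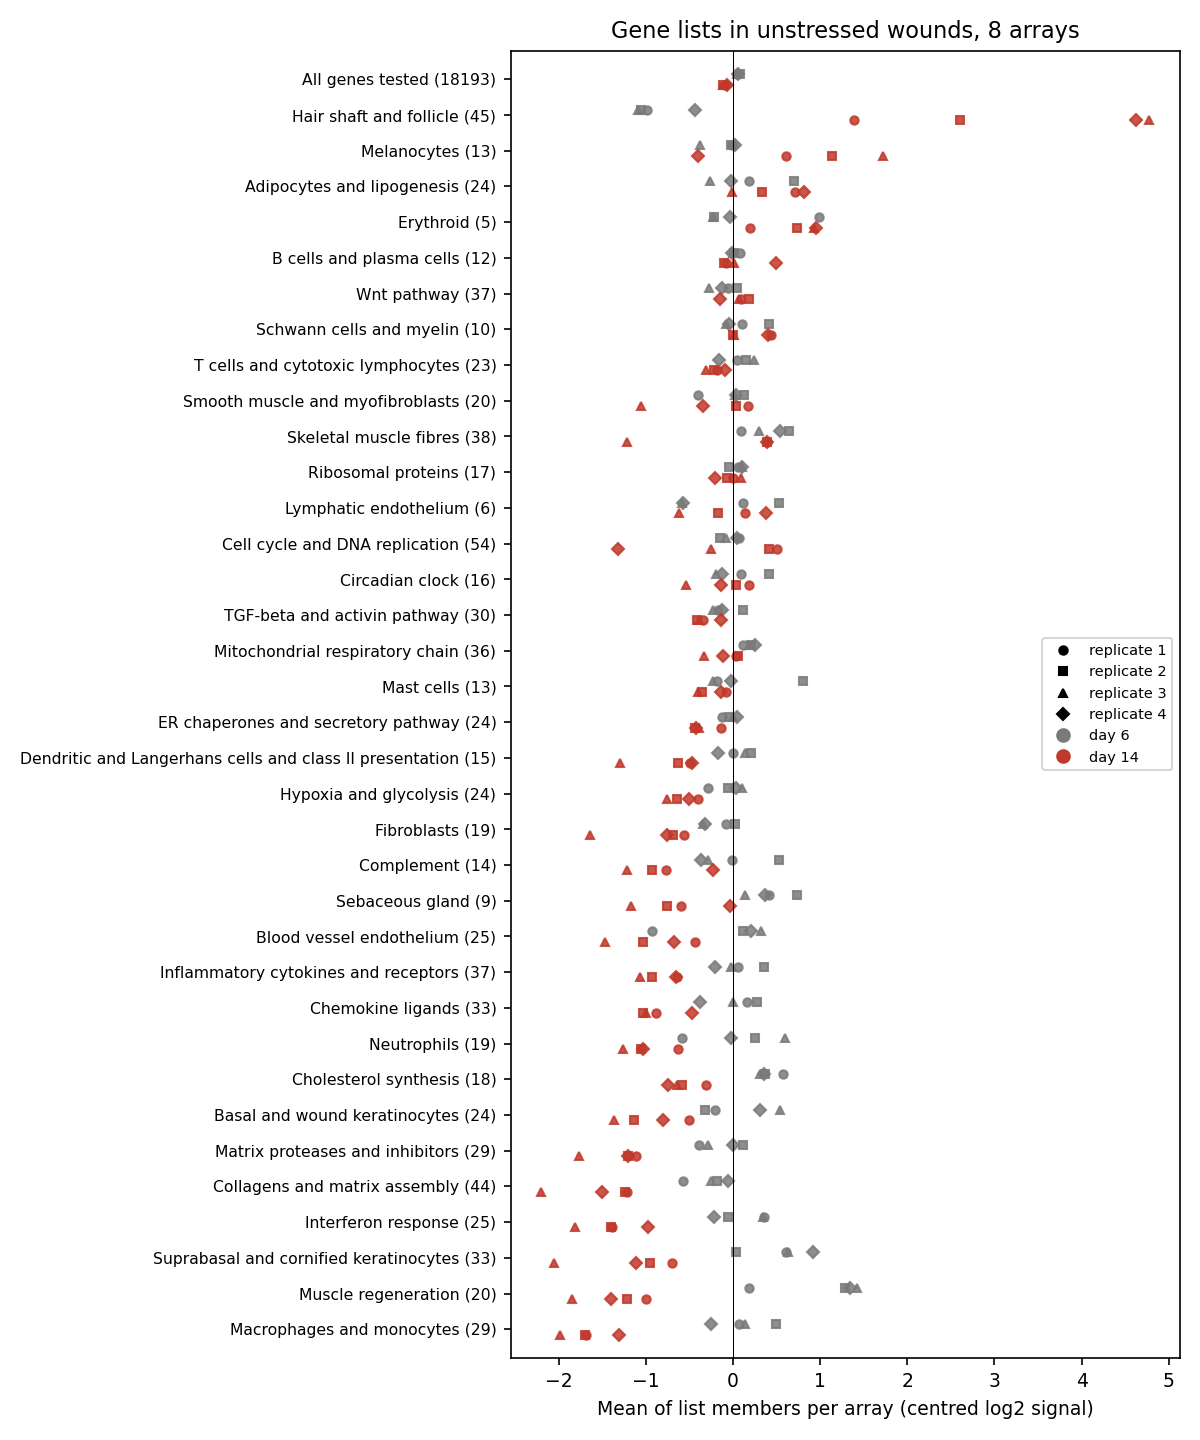
Mean centred log2 signal of the members of each of 35 gene lists (y axis, with the number of members measured) in each of the 8 unstressed arrays; marker shape is the replicate and colour the day. Hair shaft and follicle genes lie far to the right at day 14, from 1.39 to 4.78, and macrophage, muscle regeneration and suprabasal keratinocyte genes lie to the left of their day 6 values.

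The hair follicle programme gave the largest rises of the time course. Of 45 measured genes of the hair shaft and follicle, 38 rose, all by at least 1, and none fell. The list mean per array was -0.98, -1.06, -1.09 and -0.43 at day 6 and 1.39, 2.60, 4.78 and 4.62 at day 14. The largest rises were also ranked among called genes with an official name and no overlap between the days. Of the first 50, 40 were keratins or keratin-associated proteins by symbol. Keratin-associated proteins, which cross-link the keratin filaments of the shaft, rose in 35 of the 38 measured on the array, with a median of 5.07. Members of this family have similar sequences, and their probe sets may cross-hybridize.

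Krtap8-1, a keratin-associated protein, read -2.62, -2.67, -2.45 and -2.54 at day 6 and 2.70, 4.70, 6.75 and 6.92 at day 14. The days did not overlap, and the day 14 arrays were spread over more than 4 log2 units while the day 6 arrays lay close together. Its difference was 7.84 (SE 0.88, limma adjusted p = 1.3e-05), a 229-fold rise if the base is 2, and 6.27 without the high-Xist arrays. Krtap11-1 rose by 7.01 (SE 1.14) and Krt33a, a keratin of the hair cortex, by 6.91 (SE 1.10). Krt26, a keratin of the inner root sheath, rose by 6.94 (SE 1.01). The other genes of the 12 largest rises were Krtap15, Krtap22-2, Krtap16-3, Krtap6-5, Krt34, Krtap4-16, Krtap4-7 and Krtap4-1, with differences from 6.63 down to 6.21, and from 4.24 down to 3.47 without the high-Xist arrays.

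The parts of the follicle did not rise alike. The roles below were assigned after the values had been seen, so they describe the list and test nothing. All 9 genes of the inner root sheath and companion layer rose, with a median of 5.72 (4.65 without the high-Xist arrays). Krt27, a keratin of the inner root sheath, read -3.65, -3.68, -3.60 and -0.51 at day 6 and 1.85, 2.83, 3.69 and 3.66 at day 14. Day 6 replicate 4 stood about 3 units above the other day 6 arrays, and still below every day 14 array (difference 5.87, SE 0.81, adjusted p = 5.8e-05). Tchh, which encodes trichohyalin and hardens the inner root sheath, was likewise highest at day 6 in replicate 4, at -0.76 against -3.59 to -2.68. Over the 9 genes, day 6 replicate 4 was 2.16 above the mean of the other day 6 arrays. Its mean over the 11 shaft keratins was only 0.23 above theirs, and over the 11 keratin-associated proteins 0.08 above.

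All 11 shaft keratins rose, with a median of 4.996, and all 11 keratin-associated proteins of the list rose, with a median of 6.04. Without the high-Xist arrays these medians were 2.81 and 3.38. At day 14 the keratin-associated proteins had array means of 1.38, 3.08, 7.496 and 7.87, and the shaft keratins 1.58, 3.09, 5.97 and 5.82. Replicates 3 and 4 thus exceeded replicates 1 and 2 by 5.45 and 3.55, while for the inner root sheath and companion layer the same gap was 1.32. Replicates 3 and 4 are the high-Xist arrays, and the part of that in the gap was not tested. S100a3, a calcium-binding protein of the hair cuticle, read -1.69, -1.93, -1.70 and -0.37 at day 6 and 2.58, 5.07, 5.81 and 5.32 at day 14, without overlap (difference 6.12, SE 0.81).

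Among 11 regulators of the follicle, 5 rose and 6 did not pass the test, with a median of 1.13 (0.94 without the high-Xist arrays). Msx2 and Hoxc13, homeobox factors of the hair matrix and shaft, rose by 3.25 (SE 0.62) and 2.78 (SE 0.52). Lef1, the nuclear partner of beta-catenin, rose by 1.98 (SE 0.41), Dlx3, another homeobox factor of the follicle, by 2.02 (SE 0.55), and Sox9, a factor of the outer root sheath and stem cells, by 1.13 (SE 0.30; 0.75 without the high-Xist arrays). Foxn1, the factor lost in nude mice, read 0.12, -0.46, 0.61 and 0.01 at day 6 and -0.08, 1.12, 3.15 and 1.89 at day 14 and overlapped between the days (1.45, SE 0.70, adjusted p = 0.091). Shh, the signal that drives follicle growth, was at 0.93, 1.39 and 0.78 in day 14 replicates 1 to 3 and at -0.86 in replicate 4, and did not pass (0.74, SE 0.47, adjusted p = 0.19). Replicate 4 is the array with the low Gapdh 5′ value. These regulators were chosen after their values were seen.

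**Figure D3:**
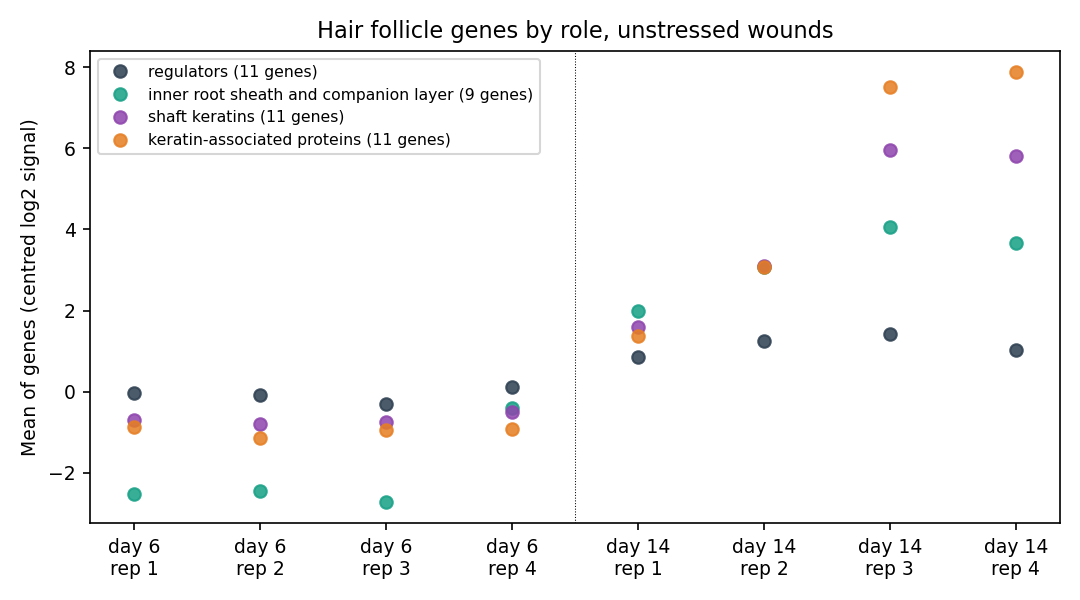
Mean centred log2 signal per array (y axis) of 4 groups of hair genes (colours) in the 8 unstressed arrays (x axis, day 6 on the left and day 14 on the right). The inner root sheath group is raised in day 6 replicate 4, and the shaft keratins and keratin-associated proteins are highest in day 14 replicates 3 and 4.

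Pigment cell genes pointed up in 3 of the 4 day 14 arrays. Of 13 melanocyte genes, 5 rose and none fell, with a median of 1.05 (1.18 without the high-Xist arrays and 0.48 without day 14 replicate 3). Slc45a2, a melanosomal transporter, read -0.10, -0.54, -0.43 and -0.08 at day 6 and 0.88, 1.18, 1.66 and 0.32 at day 14 and did not overlap (1.30, SE 0.30, adjusted p = 0.0024). Oca2 and Gpr143, membrane proteins of the melanosome, rose by 1.86 (SE 0.55) and 1.28 (SE 0.42), and Gpr143 did not pass without day 6 replicate 3 or day 14 replicate 2 or 3 (1.12, 1.13 and 0.93). Sox10, which specifies neural crest derivatives, rose by 0.37 (SE 0.12), though 1 of its 3 probe sets had the other sign and it did not pass without day 6 replicate 2 (0.30) or day 14 replicate 4 (0.32). The fifth was the receptor gene Kit, also in the mast cell list, at 0.56 (SE 0.19), which did not pass without day 6 replicate 1 or 4 or day 14 replicate 3 (0.49, 0.52 and 0.35). The defining markers Tyr and Dct, enzymes of melanin synthesis, did not pass. Tyr read 0.59, 1.77, 2.68 and -1.42 at day 14, and Dct 0.90, 1.33, 1.90 and -1.88, so replicate 4 lay below every day 6 value in both. The list mean of day 14 replicate 4 was -0.40, while the other 3 lay between 0.61 and 1.72. The low Gapdh 5′ value of replicate 4 moved with these genes, and its part in the result was not tested.

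Macrophage genes fell together and by several-fold. Of 29 genes of macrophages and monocytes, 23 fell, 22 of them by at least 1, and 1 rose. The 4 genes with the smallest p were Aif1, an actin-binding protein of macrophages, Ms4a7, a membrane protein of the same cells, Cybb, the catalytic subunit of the phagocyte oxidase, and Fcgr1, the high-affinity IgG receptor. Aif1 read 0.17, 0.52, 0.67 and -0.17 at day 6 and -3.29, -3.22, -2.90 and -2.83 at day 14. The 4 arrays of a day lay within 1 unit of each other and the days were more than 2 units apart (difference -3.36, SE 0.23, adjusted p = 5.5e-07). Ms4a7 fell by 3.40 (SE 0.23), and Cybb and Fcgr1 changed by -3.65 (SE 0.30) and -3.73 (SE 0.32). The defining markers moved the same way. Cd68, a lysosomal glycoprotein, fell by 2.92 (SE 0.33), Adgre1, which encodes F4/80, by 2.14 (SE 0.27), Csf1r, the receptor for macrophage colony-stimulating factor, by 2.13 (SE 0.30), and C1qa, a complement subunit made by macrophages, by 1.56 (SE 0.30).

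For alternatively activated macrophages no list was fixed, and 4 genes known from them are given singly. Retnla, which encodes a resistin-like secreted protein induced by interleukin 4, was the single riser of the list. It read 1.32, -0.11, -0.70 and -0.62 at day 6 and 2.17, 1.37, 1.64 and 3.30 at day 14, without overlap (2.15, SE 0.53, adjusted p = 0.0038). Chil3, a chitinase-like protein, fell by 2.88 (SE 0.72), and Mrc1, the mannose receptor, was not called (-0.50, SE 0.37, adjusted p = 0.26). Chil3 and Mrc1 were picked after their values were seen. Arg1, which encodes arginase, read -1.34, -1.52, 2.90 and 1.67 at day 6 and -2.18, -1.92, -0.49 and -1.15 at day 14. Day 6 fell into 2 low and 2 high arrays, and the lowest day 6 values were below the highest day 14 value (-1.86, SE 0.89, adjusted p = 0.088).

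Neutrophil genes gave a mixed list. Of 19 measured, 8 fell and 3 rose, beside 31.8% and 23.1% of all genes. The 8 falls were all by at least 1 and the 3 rises all by less than 1. The 3 that rose, Ngp, Ltf and Mpo, encode granule proteins made during maturation in the bone marrow, and rose by 0.64, 0.47 and 0.72. Ngp lost its call without any 1 of 6 arrays (day 6 replicates 1 to 3 and day 14 replicates 2 to 4, 0.54 to 0.65) and Ltf without any 1 of 4 (day 6 replicates 1 and 3 and day 14 replicates 3 and 4, 0.36 to 0.46). Clec4d, a C-type lectin receptor of myeloid cells, fell by 3.18 (SE 0.39, adjusted p = 2.3e-05) and Csf3r, the receptor for granulocyte colony-stimulating factor, by 1.45 (SE 0.34). The alarmin subunits S100a8 and S100a9 were uneven between the arrays of a day. S100a8 read -0.10, 0.84, 1.77 and 0.08 at day 6 and -0.54, -3.65, -1.89 and -2.78 at day 14 and fell (-2.86, SE 0.77, adjusted p = 0.0061). S100a9 read -2.73, 0.04, 2.41 and -0.03 at day 6 and -0.30, -3.14, -3.43 and -3.39 at day 14. Day 6 replicate 1 was low and day 14 replicate 1 high, so that the days overlapped (-2.48, SE 1.06, adjusted p = 0.058). Stfa3, a cysteine protease inhibitor of myeloid cells, read -1.23, -2.12, -7.42 and -6.03 at day 14 against -0.80 to 0.30 at day 6, lowest in the high-Xist arrays (-4.12, SE 0.996). Rnase2b, a ribonuclease that is in no list, read 0.37, 0.17, 1.57 and 0.73 at day 6 and -5.22, -6.02, -5.63 and -4.53 at day 14 and had the second largest fall of the named genes (-6.06, SE 0.73). Both belong to families of similar genes, whose probe sets may cross-hybridize. Cxcr2, a chemokine receptor that marks neutrophils, did not pass (0.05, SE 0.19, adjusted p = 0.84).

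Of 33 chemokine ligands, 16 fell, 13 of them by at least 1, and 1 rose. Cxcl2, which attracts neutrophils, read -0.05, 0.85, 1.60 and 2.70 at day 6 and -3.08, -2.81, -3.32 and -2.95 at day 14. The day 14 arrays were all low and tight while the day 6 arrays spread over nearly 3 units (difference -4.32, SE 0.61, adjusted p = 6.4e-05). Ccl3 and Ccl12, which attract monocytes, fell by 2.81 (SE 0.30) and 2.83 (SE 0.41), and Cxcl10, which is induced by interferon, by 2.38 (SE 0.32). Ccl2, the main monocyte attractant, read 0.59, 1.34, -0.36 and -0.98 at day 6 and -1.96, -1.87, -1.85 and -1.22 at day 14 and fell by 1.87 (SE 0.46). The single riser was Cxcl14, a chemokine of resting epithelium, which rose by 1.58 (SE 0.47, adjusted p = 0.011). Among 37 inflammatory cytokines and receptors 21 fell and 2 rose. The risers were Il24, a cytokine of the interleukin 10 family, at 1.21 (SE 0.20), and Csf2, at 0.49 (SE 0.19), which lost its call without any 1 of 7 arrays (all but day 14 replicate 2, 0.43 to 0.53). Il1b, which encodes interleukin 1 beta, read -1.08, 0.62, 0.92 and 1.02 at day 6 and -2.22, -2.20, -2.39 and -1.70 at day 14 (-2.50, SE 0.48). Il10ra, the interleukin 10 receptor chain, Csf2ra, a receptor chain for granulocyte-macrophage colony-stimulating factor, and Tnfrsf1b, a receptor for tumour necrosis factor, had the smallest p beside Csf1r. Il10ra fell by 2.38 (SE 0.24), but only 1 of its 3 probe sets was negative.

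Lymphoid and dendritic lists did not move as blocks. Of 23 T cell and cytotoxic lymphocyte genes 4 rose and 8 fell, with a median of 0.01. Over all genes 23.1% rose and 31.8% fell, which is the background for every list of this paragraph. Cd3g, a chain of the T cell receptor complex, fell by 2.03 (SE 0.30), and Klrd1, a natural killer receptor, by 1.77 (SE 0.22). Cd3e, another chain of that complex, did not pass (0.12, SE 0.11, adjusted p = 0.39), and Cd4, the co-receptor of helper cells, rose by 0.85 (SE 0.16). The other risers were Cd2, Cd8a and Foxp3, at 0.52, 0.52 and 0.26. Cd2 did not pass without day 6 replicate 4 (0.42), nor Foxp3 without any 1 of 6 arrays (day 6 replicates 1, 2 and 4 and day 14 replicates 1, 2 and 4, 0.20 to 0.27). Of 12 B cell genes 5 rose and 3 fell. Ms4a1, Pax5, Blk, Fcrla and Mzb1 rose by 0.44 to 0.64, and Cd79b, Xbp1 and Ighm changed by -0.49, -0.56 and -1.21. Each of these 8 except Blk lost its call without at least 1 array, and Blk was at 0.42 without day 14 replicate 4. Of 13 mast cell genes, the protease gene Mcpt2 and Kit rose, at 0.66 and 0.56, and the chymase gene Cma1 and Hdc, which makes histamine, fell, at -0.97 and -1.31. Cma1 did not pass without day 6 replicate 2 or day 14 replicate 2 or 3 (-0.61, -0.94 and -0.73). In the dendritic and class II list 7 of 15 fell and 3 rose. H2-Ab1, a class II chain, fell by 3.14 (SE 0.43) and Itgax, which encodes CD11c, by 2.13 (SE 0.27). The dendritic cell markers Zbtb46 and Flt3 rose by 0.92 (SE 0.16) and 0.60 (SE 0.16). The third riser was Epcam, an epithelial adhesion molecule that Langerhans cells share, at 1.07 (SE 0.23). Of 14 complement genes 5 fell and 2 rose, beside 31.8% and 23.1% of all genes. The anaphylatoxin receptor gene C3ar1 was at -3.46 (SE 0.35), and C2, C5ar1, Cfb and Cfp lay between -1.85 and -1.45. Cfi, which cleaves C3b, rose by 0.70 (SE 0.17) and Hc, which encodes C5, by 0.40 (SE 0.16). Hc lost its call without any 1 of 7 arrays (all but day 14 replicate 3, 0.31 to 0.45).

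The interferon response fell without an exception among its called members. Of 25 measured genes 20 fell, 16 of them by at least 1, and none rose. In 19 of these 20 the days did not overlap, and the list median was -1.70 (-1.51 without the high-Xist arrays). Interferons act through STAT and IRF factors, which bind a repeated GAAA core, the interferon-stimulated response element. To show this feature, RefSeq promoter sequence (GRCm38.p6, from 250 bases before to 50 after each gene start) was searched on both strands for GAAANNGAAA, where N is any base and overlapping matches were counted. The match was found in 11 of the 20 members with a promoter sequence (55.0%) and in 1079 of 27025 promoters of all genes (3.99%). The stretches that hold it upstream of the start in 6 genes that fell are printed 5′ to 3′ on the strand of the gene, with matches in capitals, read as GAAANNGAAA or, on the opposite strand, as its reverse complement.

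Ifit1, chr19:34640760-34640838, plus strand: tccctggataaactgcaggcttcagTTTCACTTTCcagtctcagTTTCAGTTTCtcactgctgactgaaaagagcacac

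Ifit3, chr19:34583348-34583441, plus strand: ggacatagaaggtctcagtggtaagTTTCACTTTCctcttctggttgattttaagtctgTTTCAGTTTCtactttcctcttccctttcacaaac

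Gbp2, chr3:142620579-142620638, plus strand: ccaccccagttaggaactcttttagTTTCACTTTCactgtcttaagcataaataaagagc

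Gbp3, chr3:142559974-142560039, plus strand: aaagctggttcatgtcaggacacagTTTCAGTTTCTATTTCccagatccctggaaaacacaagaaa

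Rsad2, chr12:26456538-26456597, minus strand: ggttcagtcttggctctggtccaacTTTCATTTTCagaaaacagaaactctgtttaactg

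Bst2, chr8:71537562-71537627, minus strand: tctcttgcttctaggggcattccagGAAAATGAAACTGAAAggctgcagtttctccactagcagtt

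Ifit1, Ifit3, Gbp3 and Bst2 carried 2 matches each in these stretches and Gbp2 and Rsad2 carried 1. Ifit1, which binds viral RNA, read 0.07, -0.38, 0.48 and -0.07 at day 6 and -3.33, -2.84, -3.52 and -1.75 at day 14, with replicate 4 the highest of the day (-2.89, SE 0.40, adjusted p = 6.1e-05). Gbp2 and Gbp3, interferon-induced GTPases, fell by 2.45 (SE 0.34) and 2.02 (SE 0.23). Gbp3 read 0.48, 0.18, 0.34 and -0.18 at day 6 and -1.95, -2.002, -2.11 and -1.18 at day 14. Replicate 4 was again the highest at day 14 in both, and the days did not overlap. Rsad2, which encodes the antiviral enzyme viperin, fell by 2.45 (SE 0.40), Bst2, which encodes tetherin, by 2.14 (SE 0.37) and Ifit3 by 1.70 (SE 0.39). Usp18, a protease that removes ISG15 and damps interferon signalling, fell by 1.94 (SE 0.25), and Ifih1, a sensor of double-stranded RNA, by 1.80 (SE 0.23). The match did not separate members by size: 9 of the 11 with it fell, with a median over the 11 of -1.80, and 8 of the 9 without it fell, with a median over the 9 of -2.06.

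Matrix genes of granulation tissue fell broadly. Of 44 genes of collagens and matrix assembly 32 fell, 26 of them by at least 1, and 1 rose. As given above, the median of -1.31 was smaller without the high-Xist arrays and after quantile normalization. Cthrc1, a secreted protein of activated fibroblasts, read -0.73, -0.50, -0.91 and -0.14 at day 6 and -3.81, -4.18, -4.80 and -5.06 at day 14. The days were separated by nearly 3 units (difference -3.89, SE 0.31, adjusted p = 1.3e-06). Col1a2, the second chain of type I collagen, read -0.08, 0.08, -0.06 and 0.06 at day 6 and -2.63, -2.19, -3.80 and -3.52 at day 14, lowest in replicates 3 and 4 (-3.04, SE 0.27). Its partner chain Col1a1 read 0.46, 0.34, 1.57 and 0.01 at day 6 and -0.95, -0.82, -1.09 and -0.31 at day 14 and fell by 1.39 (SE 0.46, adjusted p = 0.019). Without day 6 replicate 3, the highest of its day, the difference was -1.06 and did not pass (adjusted p = 0.067). Col3a1, the type III collagen of early granulation tissue, read -1.73, -1.48, -3.52 and -2.65 at day 14 against -0.61 to 0.11 at day 6 (-2.19, SE 0.33). It fell by 1.45 without the high-Xist arrays. Col5a2, a type V chain that sets fibril diameter, fell by 2.22 (SE 0.28), and Postn, which encodes the matricellular protein periostin, fell by 1.499 (SE 0.18). The single riser, Sparc, rose by 0.81 (SE 0.23), and only 1 of its 3 probe sets had that sign.

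The fibroblast list contains Col1a1, Col1a2 and Col3a1. Of its 19 genes 7 fell and 1 rose, beside 31.8% and 23.1% of all genes. Pdgfra and Dpt, its defining markers, did not pass, at -0.06 (SE 0.27, adjusted p = 0.87) and 0.27 (SE 0.26, adjusted p = 0.39). Pdgfrb, a receptor of pericytes and fibroblasts, fell by 1.60 (SE 0.35). The riser was Fbln1, which encodes fibulin 1, at 1.22 (SE 0.14), with 1 of 3 probe sets of that sign. Contractile genes showed little movement as a list. Of 20 smooth muscle and myofibroblast genes 4 fell and 1 rose, with a median of -0.07 (0.33 without the high-Xist arrays). Acta2, the alpha smooth muscle actin that defines myofibroblasts, read -0.97, -0.66, 0.17 and -0.43 at day 6 and -0.08, 0.08, -1.73 and -1.10 at day 14. Day 14 replicates 1 and 2 lay among the highest values and replicates 3 and 4 were the lowest of the 8 (-0.24, SE 0.46, adjusted p = 0.68). Mylk, the myosin light chain kinase, fell by 1.67, Cald1, which encodes caldesmon, by 1.55, Rgs5, a pericyte gene, by 1.43, and Des, which encodes desmin, by 1.36. Des lost its call without any 1 of 6 arrays (day 6 replicates 2 to 4 and day 14 replicates 2 to 4, -1.40 to -1.14). The riser was Myocd, a coactivator of smooth muscle genes, at 0.44 (SE 0.11).

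Of 29 matrix proteases and their inhibitors 16 fell, 15 of them by at least 1, and 2 rose, the inhibitors Timp3 and Timp4. Mmp13, a collagenase, read -0.39, 0.05, -0.16 and 1.09 at day 6 and -4.77, -4.56, -4.54 and -4.44 at day 14. No array of one day came within 4 units of the other (difference -4.73, SE 0.53, adjusted p = 1.3e-05). Mmp3, which encodes stromelysin 1, fell by 3.29 (SE 0.38), and Adam8, a membrane protease of leukocytes, was the fourth gene named by its p. Prss35, a secreted serine protease outside the list, completed the 12 largest falls, at -4.09 (SE 0.84). Timp3, an inhibitor held in the matrix, read -1.09, -0.51, -1.44 and -0.86 at day 6 and 1.13, 1.09, 0.95 and 1.16 at day 14, and its 4 probe sets had the same sign (2.06, SE 0.25, adjusted p = 2.5e-05). Timp4 rose by 2.42 (SE 0.43), and Timp1, another inhibitor of matrix proteases chosen here after its values were seen, fell by 2.55 (SE 0.42).

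In the TGF-beta and activin pathway, which drives matrix synthesis, 11 of 30 genes fell and 4 rose. Over all genes 31.8% fell and 23.1% rose, so the falls were near the share of all genes. Among the ligands, Tgfb3 read -0.33, 0.31, 0.20 and 0.31 at day 6 and -1.38, -1.78, -2.77 and -2.54 at day 14 and fell by 2.24 (SE 0.29), and Inhba, the activin A subunit, fell by 0.89 (SE 0.13), with 1 of 2 probe sets of that sign. Fst, which encodes the activin trap follistatin, fell by 1.26 (SE 0.21), and Ltbp3, which anchors latent TGF-beta, by 1.12 (SE 0.16). The 4 that rose were the decoy receptor gene Bambi, at 3.60 (SE 0.61), the inhibitory Smad7, at 1.25, the receptor Acvr1, at 1.03, and the mediator Smad3, at 0.46.

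Muscle regeneration genes fell, while those of mature fibres did not as a list. Of 20 regeneration genes 18 fell, 15 of them by at least 1, and none rose, with a median of -2.03. Myog, the factor that commits myoblasts to differentiate, read 0.08, 1.12, 1.65 and 1.36 at day 6 and -2.30, -2.05, -2.68 and -2.91 at day 14. Day 6 replicate 1 was the lowest of its day and still above every day 14 array (-3.54, SE 0.55, adjusted p = 0.00014). Myod1, the master factor of the myogenic programme, fell by 2.07 (SE 0.27), and Chrna1, the acetylcholine receptor subunit, by 2.60 (SE 0.37). Myh3, the embryonic myosin heavy chain, read -0.40, 1.47, 2.66 and 2.32 at day 6 and -3.06, -3.35, -3.61 and -4.11 at day 14 (-5.05, SE 0.71). Tnnt2, a troponin of heart and immature muscle, fell by 5.65 (SE 0.74). Myl4, Actc1 and Myh8, embryonic or perinatal contractile genes, were also among the 12 largest falls, at -5.35, -4.37 and -4.28, with 1 of 2 Myl4 probe sets negative. Day 6 replicate 1 had a list mean of 0.18, while the other 3 day 6 arrays lay between 1.28 and 1.42.

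Of 38 genes of mature muscle fibres, 8 fell and 3 rose, with a median of -0.13 that turned to 0.17 without the high-Xist arrays. Acta1, skeletal alpha actin, read 0.04, 0.20, -0.04 and 0.12 at day 6 and 0.16, 0.07, -0.34 and 0.20 at day 14 and overlapped throughout (-0.06, SE 0.51, adjusted p = 0.93). The SE exceeds the spread of these 8 values, since its variance is pooled over the 4 groups of the fit. Ckm, the muscle creatine kinase, rose by 1.03 (SE 0.33; 0.82 and not called without day 14 replicate 4), Jph1, which joins muscle membranes, by 1.51, and Apobec2, a muscle protein of the deaminase family, by 2.29 (SE 0.49). Among the 8 that fell, Tnnc1 and Tnnt1, which are troponins of slow fibres, changed by -4.43 and -3.98. The fibre list mean at day 14 was -1.22 in replicate 3, against 0.39 in each of the other 3 arrays, and Myh4, a fast myosin, was at -5.45 there and at 0.68 to 1.29 in the other 3.

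Most genes of the upper epidermis fell. Of 33 suprabasal and cornified genes 26 fell, 25 of them by at least 1. The single riser was Tchh, which the hair list holds too. Serpinb12, an epidermal serpin, read 2.01, 0.91, 2.24 and 2.57 at day 6 and -2.92, -4.00, -5.97 and -4.49 at day 14 and had the largest fall of the named genes (-6.28, SE 0.79, adjusted p = 2.9e-05). Klk5, a protease of shedding cornified cells, read 1.02, 0.34, 0.78 and 1.24 at day 6 and -1.75, -2.004, -3.52 and -2.30 at day 14 (-3.24, SE 0.41). Aloxe3, a lipoxygenase of the skin barrier, was the remaining gene named by its p. The defining keratins fell most in 1 array. Krt10 read -0.05, -0.15, -3.27 and -0.78 at day 14 against 0.16 to 0.41 at day 6 (-1.33, SE 0.53), and Krt1 -0.24, -0.41, -4.24 and -1.52 against 0.01 to 0.36 (-1.85, SE 0.61). Replicate 3 was the lowest in both, and without the high-Xist arrays the differences were -0.37 and -0.58. Without day 14 replicate 3 alone Krt1 was at -0.98 and still passed. Krt10 was at -0.60, and it did not pass then (adjusted p = 0.092) or without any 1 of day 14 replicate 4 and the 4 day 6 arrays (-1.43 to -1.28). Ivl, which encodes involucrin, fell by 1.81 (SE 0.43).

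Of 24 basal and wound keratinocyte genes 12 fell and 3 rose, with a median of -1.02 (-0.93 without the high-Xist arrays). The basal keratins Krt5 and Krt14 did not pass, at -0.05 (SE 0.14, adjusted p = 0.79) and -0.65 (SE 0.36, adjusted p = 0.14). Of the keratins that wound edges induce, Krt16 read -1.84, -2.13, 0.99 and 0.02 at day 6 and -1.84, -3.46, -5.16 and -2.41 at day 14 and fell, with overlap (-2.48, SE 0.93, adjusted p = 0.034). It did not pass without day 6 replicate 3 or 4 (-1.90 and -2.23) or day 14 replicate 2 or 3 (-2.40 and -1.83). Krt6a was not called (-0.36, SE 0.51, adjusted p = 0.56), and Krt17 rose by 1.19 (SE 0.19), with 1 of 2 probe sets of that sign. Krt17 is also made in hair follicles. Lamb3, a laminin chain of the basement membrane, fell by 1.62 (SE 0.32), and Tgfa, an epidermal growth factor receptor ligand, rose by 1.03 (SE 0.16), as did Itga3, an integrin chain, by 0.55 (SE 0.17). Among 18 cholesterol synthesis genes 14 fell and none rose, with a median of -0.98 (-0.79 without the high-Xist arrays and -0.58 with the mean of a gene's probe sets). Mvd, a decarboxylase of the mevalonate pathway, read 0.63, 0.56, 0.89 and 0.21 at day 6 and -1.21, -1.39, -1.07 and -1.96 at day 14 (-1.98, SE 0.22, adjusted p = 1.2e-05), and Fdft1, which makes squalene, fell by 1.61 (SE 0.22). In the sebaceous gland list 3 of 9 fell and 1 rose, beside 31.8% and 23.1% of all genes. The falls were the desaturase Scd3 at -3.31 (SE 0.49), the fatty acyl reductase Far2 at -3.23 (SE 0.62) and Acsbg1, an acyl-CoA synthetase, at -2.38 (SE 0.37). The riser was the desaturase Fads2, at 0.81 (SE 0.28), which did not pass without day 6 replicate 1 or day 14 replicate 2 (0.70 and 0.54). The gland marker Mc5r was not called (0.24, SE 0.16, adjusted p = 0.22).

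**Figure D4:**
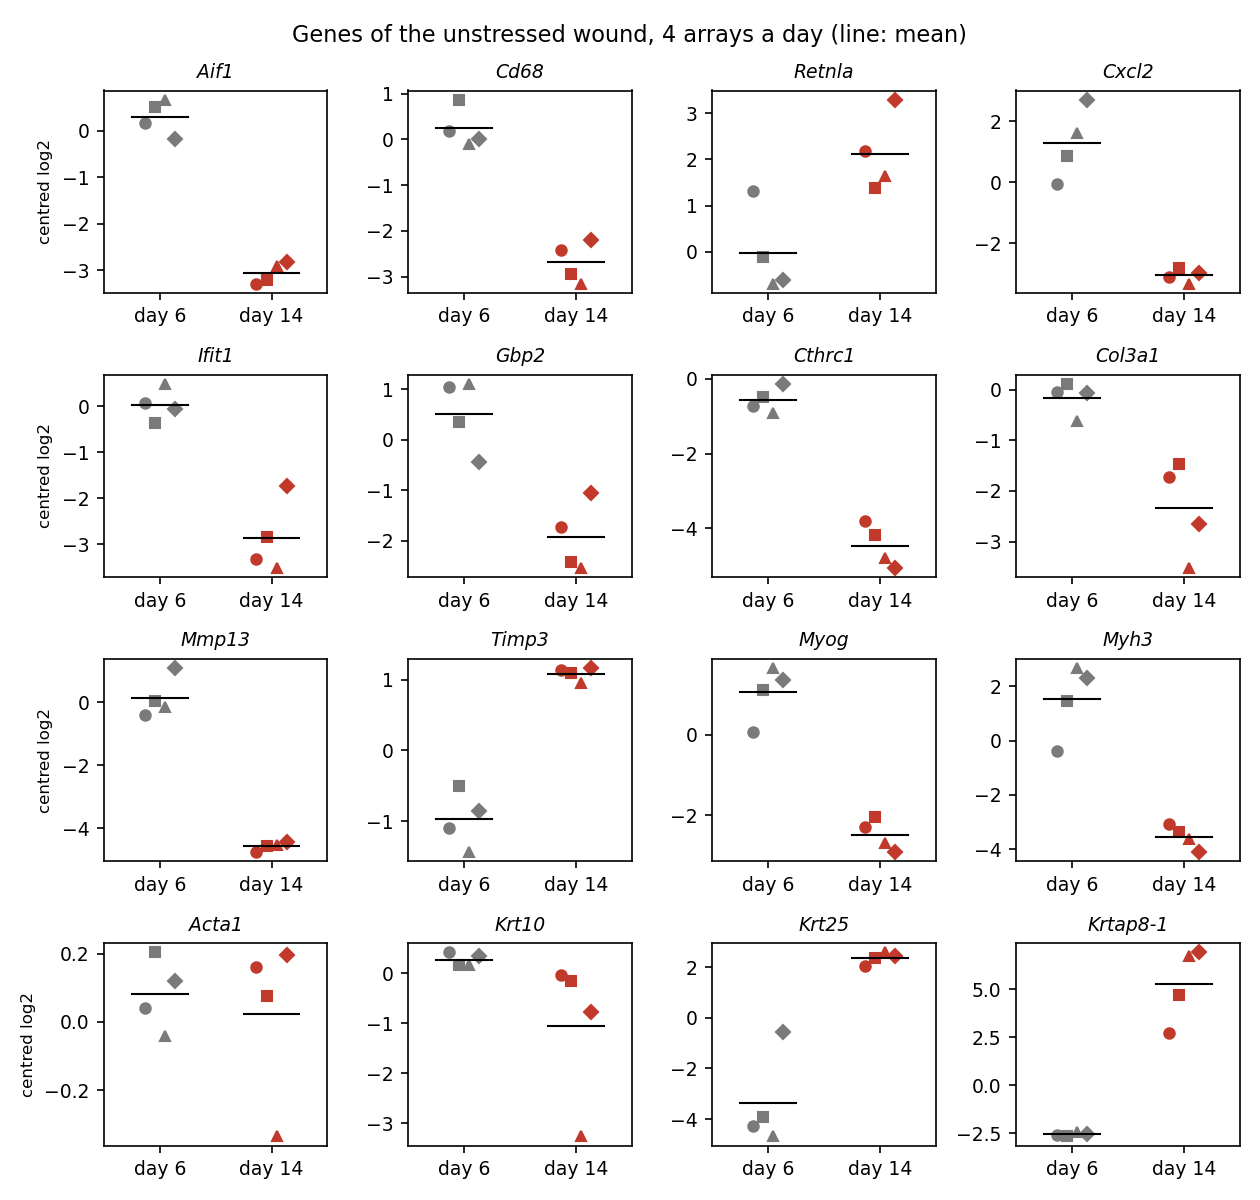
Centred log2 signal (y axis, own scale in each panel) of 16 genes in the 4 day 6 arrays (grey) and the 4 day 14 arrays (red) of unstressed wounds; lines are means and marker shapes are replicates. The days are apart in Aif1, Mmp13, Timp3, Cthrc1 and Myog and overlap in Acta1, and Krt10 is lowest in day 14 replicate 3.

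Proliferation genes did not change as a list. Of 54 cell cycle and DNA replication genes 8 rose and 5 fell, beside 23.1% and 31.8% of all genes. The median was -0.20, 0.51 without the high-Xist arrays and 0.31 without day 14 replicate 4 alone, so that its sign turned. The list mean at day 14 was 0.50, 0.41, -0.25 and -1.32, with replicate 4 the lowest. Mki67, the proliferation antigen Ki-67, read -0.01, -0.26, 0.01 and 0.08 at day 6 and 0.66, 0.58, 0.03 and -2.52 at day 14 (-0.27, SE 0.52, adjusted p = 0.68). Tpx2, a spindle assembly factor, was higher in every day 14 array (1.55, SE 0.18, adjusted p = 1.4e-05), but only 2 of its 4 probe sets were positive. Cenpa, the centromeric histone, rose by 0.93 (SE 0.20). The 5 that fell were Ncapg, a condensin subunit, at -1.22 (SE 0.18), Prim1, a primase subunit, at -1.23 (SE 0.30), Cenpe, Ttk and Cdc6. The last 3 stood at -0.89, -0.77 and -0.72, each lost its call in 4 or more of the 8 fits that left out 1 array, and without day 14 replicate 4 they stood at -0.58, -0.46 and -0.47. The low Gapdh 5′ value of replicate 4 moved with this list, and its part in the result was not tested.

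In the Wnt pathway, which acts in hair growth and in repair, 11 of 37 genes rose and 6 fell. Over all genes 23.1% rose and 31.8% fell. Nkd2, a feedback inhibitor, read -0.42, 0.02, -0.17 and -0.20 at day 6 and 1.13, 1.77, 1.99 and 1.52 at day 14, and its 4 probe sets had the same sign (1.79, SE 0.26, adjusted p = 7.0e-05). The ligands Wnt6 and Wnt10b rose by 0.85 (SE 0.12) and 0.74 (SE 0.11), and the secreted antagonist Sfrp5 by 0.89 (SE 0.13). The 6 that fell were Ccn4, Sfrp2, Lrp5, Dkk3, Wnt4 and Wnt10a, between -2.68 and -0.69.

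Of 25 genes of blood vessel endothelium 10 fell and none rose, beside 31.8% and 23.1% of all genes. The days overlapped in all but 2 of the 25, while they did not overlap in 48.9% of all genes. Aplnr, the apelin receptor of sprouting vessels, read -1.52, 0.26, 1.37 and 0.65 at day 6 and -2.45, -2.91, -3.24 and -1.99 at day 14 (-2.84, SE 0.59, adjusted p = 0.0012), and Erg, an endothelial transcription factor, fell by 1.502 (SE 0.27). Pecam1, which encodes CD31, lay between -1.42 and 0.34 at day 6, read -0.37, -1.24, -2.31 and -0.24 at day 14, and was not called (-0.78, SE 0.52, adjusted p = 0.22). The list mean of day 6 replicate 1 was -0.93, below 0.11 to 0.33 in the other day 6 arrays. Of 6 lymphatic genes 1 rose, the lymphatic transcription factor Prox1, at 0.66 (SE 0.17). Vegfa, the main vessel growth factor, was not called (0.19, SE 0.17, adjusted p = 0.34). In the list of hypoxia and glycolysis genes to which it belongs, 11 of 24 fell and 2 rose. Slc2a1, the glucose transporter GLUT1, read -0.07, -0.23, 0.65 and 0.27 at day 6 and -1.91, -2.57, -2.68 and -2.26 at day 14 (-2.51, SE 0.42), and Ero1a, an oxidase of protein folding, rose by 1.93 (SE 0.35). The other riser was Pfkl, a phosphofructokinase, at 0.74 (SE 0.24), with 1 of 3 probe sets of that sign. It did not pass without day 6 replicate 2 (0.55).

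Fat genes were mixed, with 5 of 24 higher and 4 lower, beside 23.1% and 31.8% of all genes. The median was 0.51, 0.67 without the high-Xist arrays and 0.31 without day 6 replicate 3. Adipoq, which encodes adiponectin, read -0.13, 1.08, -0.74 and 0.02 at day 6 and 1.56, 1.10, 0.65 and 2.28 at day 14 and did not pass (1.34, SE 0.90, adjusted p = 0.22). Cidea, a lipid droplet protein, fell by 2.68 (SE 0.45), and Acaca, which makes malonyl-CoA, rose by 0.95 (SE 0.19). The hormone genes Lep and Retn rose by 2.10 and 1.48, and Lep was at 1.39 without day 14 replicate 4. The other risers, Plin4 at 1.28 and Scd2 at 1.31, each lost the call without any 1 of 6 arrays, with 1.03 to 1.31 and 0.98 to 1.35. Of the lipid synthesis genes Elovl6, Dgat2 and Acly, which completed the falls, the differences were -1.73, -1.04 and -0.51. Of 16 clock genes 3 rose and 5 fell, near the 23.1% and 31.8% of all genes. Per2 rose by 1.82 (SE 0.37), Cry1 by 0.81 (SE 0.17) and Bhlhe41 by 0.65 (SE 0.14), all repressors of the clock. The activators Arntl, Npas2 and Clock changed by -1.25, -1.13 and -0.91, the repressor Nr1d1 by -1.11 and the output factor Hlf by -1.13. Npas2 read 0.185 in day 14 replicate 3, against -0.99 to -0.82 in the other 3 arrays of that day. Hlf did not pass without day 6 replicate 2 or day 14 replicate 3 or 4 (-1.03, -0.83 and -0.92). The hour of harvest is not given in the labels. Of 24 genes of endoplasmic reticulum chaperones and secretion 12 fell and 4 rose. The risers Hspa5, Pdia4, Pdia6 and Hyou1, chaperones and folding enzymes of the lumen, lay between 0.68 and 0.92, and the first 3 had a probe set of the other sign. Of 36 respiratory chain genes 15 fell and 2 rose, which were Cycs, cytochrome c, at 0.88 (SE 0.19) and Cox5b at 0.60 (SE 0.21). Cox5b did not pass without day 6 replicate 2 or day 14 replicate 2 or 3 (0.495, 0.56 and 0.45). The medians of 17 ribosomal protein, 10 Schwann cell and 5 erythroid genes were -0.13, 0.10 and 0.32.

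Without the high-Xist arrays, values not yet given moved as follows. The macrophage gene C1qa was at -1.02, Stfa3 at -1.59, the contractile genes Cald1 and Mylk at -1.01 and -1.08, Smad7 at 0.55, Lep at 1.08, Fads2 at 1.23 and Ighm at -1.96, and all of these passed. The cell cycle gene Prim1 was at -0.59 and passed, while Cenpe, Ttk and Cdc6 were at -0.17, -0.21 and -0.08 and did not. Other calls lost there were Cxcl14 at 1.07, Rgs5 at -1.11, Sfrp2 at -1.16, Ltf at 0.25, Sox10 at 0.28 and Hlf at -0.38. Among lymphoid, mast cell and complement genes, Pax5, Fcrla, Mzb1, Cd79b, Xbp1, Foxp3, Cma1, Hdc and Hc also lost theirs, with Pax5 at 0.32 and both Fcrla and Mzb1 at 0.28. Csf2, Itga3 and Pfkl lost theirs with moves of less than 1.5 times. Beside the genes already named for it, at least 1 probe set had the other sign in Acaca, Acly, C2, C5ar1, Cald1, Cenpa, Clock, Cox5b, Csf2ra, Des, Elovl6, Epcam, Erg, Fads2, Fdft1, Hlf, Ighm, Jph1, Ltbp3, Ms4a1, Mylk, Pax5, Prox1, Scd2, Smad3, Tnfrsf1b, Ttk, Wnt6, Xbp1 and Zbtb46.

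The same interval was measured in stressed wounds, which shared no array with the unstressed ones. There 4363 genes rose (24.0%) and 6241 fell (34.3%). In the same direction in both, 7943 genes passed, which is 79.4% of the unstressed calls and 74.9% of the stressed calls. Stressed wounds share with the unstressed ones the separation of the poly-A controls by day. They also share the Xist split: stressed day 14 replicates 3 and 4 had high Xist, at 6.20 and 6.30, and no stressed day 6 array did. Both time effects also came from 1 fit with a pooled variance, on probe sets chosen over all 16 arrays. The 2 sets of calls are therefore not independent. In stressed day 6 replicate 2 the 5′ minus 3′ differences were -1.42 for Gapdh and -1.60 for Actb, the lowest of the 16 arrays. Its 18S probe sets read 3.51, the highest. No fit left out that array alone, and its part in the stressed values was not tested. The hair list had a median of 3.68 under load, against 4.98 without, the macrophage list -1.17 against -2.05, the interferon list -1.80 against -1.70 and muscle regeneration -1.82 against -2.03. Mature muscle fibres stood at -2.73, with 34 of 38 lower under load, against -0.13 without, fat genes at -1.05 against 0.51, and collagens and matrix assembly at -0.06 against -1.31. These are medians side by side, and no difference between lists was tested.

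The difference between the 2 time courses passed limma's test in 7 genes (0.0385% of 18193, with 1834 at an unadjusted p under 0.05). Cthrc1 changed by -3.89 without load and by 0.46 (SE 0.31) with load (adjusted p of the difference = 0.00099). Postn changed by -1.499 and 0.11 and Col5a2 by -2.22 and 0.25, so these 3 matrix genes fell in unstressed wounds and had time effects near 0 in stressed ones. Ctss, a lysosomal protease of macrophages, changed by -2.87 and -0.70. Timp4 went from a rise of 2.42 to -1.29, Apobec2 from 2.29 to -2.49 and Prkg2, a cGMP-dependent kinase, from 0.94 to -2.36. The unstressed rise of Prkg2 did not pass without day 6 replicate 3 or 4 or day 14 replicate 1 (0.83, 0.81 and 0.68). Cthrc1 was the only one of the 7 with an adjusted p under 0.01. The count rests on which arrays are used: it was 61 without day 14 replicate 3 and 1418 on the 12 low-Xist arrays. Retnla, which rose by 2.15 without load, fell by 1.85 under load, but its difference did not pass (adjusted p = 0.072).

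**Figure D5:**
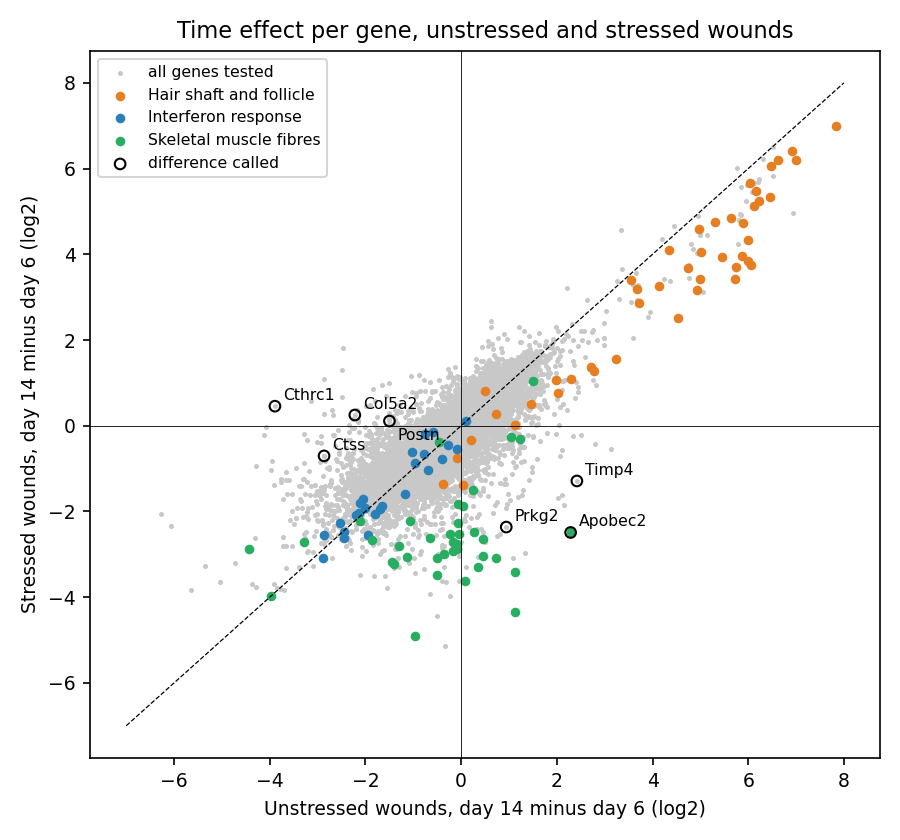
Day 14 minus day 6 in log2 units for each of 18193 genes in unstressed wounds (x axis) and in stressed wounds (y axis), with 3 gene lists in colour and the 7 genes whose difference passed the test circled and named. Hair genes lie at the upper right, interferon genes at the lower left near the dashed line of equal change, and muscle fibre genes mostly below it.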

How the data were processed

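Whole-tissue RNA of 16 mouse wounds, 4 in each of 4 groups, was measured on Affymetrix GeneChip arrays. Per the labels' series design text, the authors used GeneSpring GX 11.0 on the scanner intensities; each probe set of the deposited log2 values is centred near 0. The log base is read as 2 from the values. The background correction, the between-array normalization and the reference of the centring were, like preparation dates, not given in the sources used here.

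Of 45101 probe sets, 34945 had 1 symbol, 932 several and 9224 none; the 64 Affymetrix control probe sets were left out of the tests. A gene was read from the probe set with the widest interquartile range over the 16 arrays. Limma 3.58.1 in R 4.3.3 fitted 4 group means (lmFit, eBayes), and p-values were adjusted by the Benjamini-Hochberg method over 18193 genes, with 0.05 as the threshold; the same fit gave the stressed time effect and the difference. The script was tested on simulated data. Arrays carry no read depth, and their number sets the precision. The labels give 4 mice per group, and the p-values measure the spread between these arrays. Replicate numbers did not pair the arrays: correlations of same-numbered deviations between the days were -0.092, -0.042, 0.045 and -0.057.

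The members and the gene lists were chosen with earlier results of these data known. Named genes are the 12 largest non-overlapping called differences each way, up to 4 members of a list with the smallest p, 19 genes always named, the defining markers of cell types and the genes with a called difference under load. Clones, predicted genes and symbols without an official name were skipped in ranking the differences. Members of small counts of called genes and examples for a cell type or role were chosen after their values were seen. Promoter sequences are RefSeq's for GRCm38.p6. Alternatives were the arrays in the fit, the normalization, array weights, a robust prior, the probe set rule, the filter, the Xist class, the replicate block and leaving out each unstressed array.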

Additional observations from a re-analysis of the deposited data

Results flagged for a closer look

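In groups of 4 arrays, a single array stood far from the other 3 in 35 of 534 groups examined (6.55%), where chance gives about 1 in 20. The hair list mean of day 6 replicate 4 was -0.432, and the mean of its inner root sheath and companion layer genes was -0.400, both above the other day 6 arrays. Krt27 at -0.512 and S100a3 at -0.374 were the highest of day 6 in the same array, as were Ltbp3 at 0.245, Smad3 at 0.0873 and Fcrla at 0.0305. In day 6 replicate 1 the muscle regeneration mean was 0.179 and the blood vessel mean -0.930, both the lowest of the day, with Chrna1 at 0.613 and Myod1 at 0.740. The erythroid mean of that array was the highest, at 0.981, and so was Prox1, at 0.265. The melanocyte mean was lowest in day 6 replicate 3, at -0.374, with Gpr143 at -0.646, while Itgax was highest there, at 0.295. Day 6 replicate 2 was lowest for Krt1 (0.00929), Mpo (-0.443), Sparc (-0.444) and Ms4a1 (-0.761) and highest for Plin4 (0.327).

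At day 14, replicate 3 was lowest for the muscle fibre mean (-1.22), for Myh4 (-5.45), for the matrix protease mean (-1.76) and for Krt5 (-0.365). It was highest for Il10ra (-1.52), Npas2 (0.185) and Wnt4 (0.294). Replicate 4 was highest for C3ar1 (-2.12), Ccl2 (-1.22) and Cfp (-0.454) and lowest for Tnnt2 (-4.77). Replicate 1 was highest for S100a9 (-0.304) and the chaperone mean (-0.139) and lowest for Csf3r (-1.69).

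The time effect differed between stressed and unstressed wounds by limma's test of the difference in 7 genes. Stressed minus unstressed, the difference was 4.35 for Cthrc1, 2.47 for Col5a2, 2.16 for Ctss and 1.61 for Postn. It was -4.78 for Apobec2, -3.71 for Timp4 and -3.31 for Prkg2.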

How the results depend on the processing

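Of 222 named genes 199 passed. Of these, 130 kept direction and call under all 19 alternatives run per gene, 68 lost the call in at least 1, and 3 reversed: Sparc stood at -0.35, Ighm at 0.26 and Pfkl at -0.40 with the mean of their probe sets. Quantile normalization ended 24 named calls, among them S100a8 and Ccl2, and the mean of a gene's probe sets 31, among them Fbln1 and Inhba. The number of called genes, 10005 of 18193 as reported, lay between 7200 and 11314. The lowest came from genes with an interquartile range above the median, so fewer were tested, and the highest from array weights. With every probe set on its own, 14037 of 34945 probe sets were called. When a difference of at least 1 was also asked, 3154 genes were called. Genes that rose numbered 2540 among the genes with an interquartile range above the median. With a difference of at least 1, the mean of probe sets left 379 higher and 1316 lower, and quantile normalization 1482 lower. The number of lists with a median of at least 1 in size, 9 as reported, was 5 after quantile normalization, 5 with the Xist class as a block in 16 arrays and 14 among the genes with an interquartile range above the median. The cause of these shifts was not tested. Lists with medians near 0, such as the cell cycle, smooth muscle and fibre lists, changed sign on the low-Xist arrays. The replicate block in the 8 unstressed arrays gave 8436 calls, 8173 of them shared in direction with the reported ones, and ended 25 named calls. Leaving out each unstressed array in turn gave 8570 to 9534 calls, with 721 to 933 higher and 2208 to 2516 lower by at least 1.

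The count of genes whose time effect differed under load, 7 as reported, moved most. It was 569 with array weights, 3 with a robust prior variance, 1 with the mean of a gene's probe sets, 3 with every probe set on its own, 21 among the genes with an interquartile range above the median, 52 with the Xist class as a block and 1418 on only the low-Xist arrays. Leaving out each unstressed array gave 1 to 61, with 61 without day 14 replicate 3, 11 without day 14 replicate 4 and 1 or 2 without day 6 replicate 1, 3 or 4 or day 14 replicate 1. Signal over background is not in the deposited table, so dim probe sets could not be set apart. The share of rises among the calls, 42.1%, lay between 35.3% and 47.2%.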

Other observations

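In the promoter stretches of cell cycle and DNA replication genes, CCAAT was found on either strand in 36 of the 45 genes with a sequence (80.0%) and in 41.1% of all 27025 promoters, and TTTGAA, the core of the element of late cell cycle genes, in 21 of 45 (46.7%) and 20.2%. These are descriptions of letters in a window from 250 bases before to 50 after the start. The median log2 difference was -0.19 in the members with CCAAT and -0.20 in the 9 without.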
